A study of Mus musculus with 18 samples.

Results

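The let-7 family of the mouse was described through the 5p arms of its hairpins, listed as mmu-let-7a-5p, mmu-let-7b-5p, mmu-let-7c-5p, mmu-let-7d-5p, mmu-let-7e-5p, mmu-let-7f-5p, mmu-let-7g-5p, mmu-let-7i-5p and mmu-miR-98-5p and named without the species prefix from here on. These 9 arms were chosen by name among the 1251 microRNA entries of the table, and all 9 were above the lowest value of the table in at least 17 of 18 libraries and were tested. Small RNA sequencing had been done on 3 sample types from SKH-1E Hairless mice, a hairless strain used to study skin tumours induced by ultraviolet radiation (UVR). The sample types were nonlesional, chronically UV-exposed skin (CHR), papilloma (PAP) and cutaneous squamous cell carcinoma (cuSCC). Each came from the same 6 female mice, numbered 2, 3, 7, 8, 9 and 10, so that n = 6 for each sample type. All 3 sample types carried the same chronic exposure to solar simulators, CHR included, and unexposed skin was not analysed here. The comparisons ask how the microRNAs differ between exposed skin, the benign lesion and the carcinoma.

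A let-7 5p arm is the strand of the hairpin that is usually loaded into an Argonaute protein, where the bases near its 5′ end, the seed, pair with messenger RNAs and lower their output. The family is known for restraining growth and fetal genes such as those of the RAS proteins and HMGA2, and its maturation is blocked by the LIN28 proteins. Its members are abundant in differentiated tissues, skin among them.

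The mature sequences are shown because the members share a seed and differ in only a few bases after it, which bears both on how reads can be told apart and on base composition. They are written 5′ to 3′ as in RefSeq for GRCm38.p6, with bases 2 to 8, the seed, in capitals.
let-7a-5p: uGAGGUAGuagguuguauaguu
let-7b-5p: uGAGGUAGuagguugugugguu
let-7c-5p: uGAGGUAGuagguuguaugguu
let-7d-5p: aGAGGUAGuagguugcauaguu
let-7e-5p: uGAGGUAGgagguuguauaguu
let-7f-5p: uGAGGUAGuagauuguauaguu
let-7g-5p: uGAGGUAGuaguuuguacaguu
let-7i-5p: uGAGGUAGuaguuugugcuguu
miR-98-5p: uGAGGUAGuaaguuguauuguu

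All 9 arms were 22 bases long and had the same seed. Counted from 1 at the 5′ end, with the base of let-7a-5p first, let-7c-5p differed from let-7a-5p by A19G, let-7e-5p by U9G and let-7f-5p by G12A. let-7b-5p differed by A17G and A19G, so that it was the richest of the 9 in G and C, at 45.5% of its bases. let-7f-5p and miR-98-5p, the latter with G11A and A19U, were the poorest at 31.8%, and the median of the tested microRNAs with a sequence was 50%. Of the 1001 entries with a mature sequence, 11 had this seed, and the 2 that were not among the 9 arms, let-7k and miR-1961, stood at the lowest value in every library. The authors mapped reads to miRBase with BLAST. How reads that fit several of these near-identical arms were divided, or whether they were counted for each, is not stated in the sources used here. The values of arms that differ by 1 base are therefore uncertain with respect to each other. Sums and equal values that bear on this are given below.

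The hairpins lay at several places in GRCm38, some of them clustered. Those of let-7a-1, let-7f-1 and let-7d were on chromosome 13 between 48536012 and 48538272, a span of 2261 bp, in exons of the noncoding RNA 6720427I07Rik. Those of let-7c-2 and let-7b were on chromosome 15 between 85706603 and 85707403 in exons of Lncppara. Those of let-7f-2 and miR-98 were on chromosome X between 151912346 and 151913321 in an intron of Huwe1, a ubiquitin ligase gene. The let-7g hairpin was in an intron of Wdr82 on chromosome 9, from 106178840 to 106178927, the let-7i hairpin on chromosome 10 from 122985640 to 122985724 in an exon of the pseudogene D630033A02Rik, and the let-7e hairpin on chromosome 17 from 17830352 to 17830444 in an intron of Spaca6, between the hairpins of miR-99b and miR-125a. Since let-7a-5p, let-7c-5p and let-7f-5p can each be made from more than one hairpin with the same mature sequence, their values could not be assigned to a locus.

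Values are on the log2 scale of ppm, the share of usable reads in units of 1e-06, after quantile normalization. They therefore carry the place of each microRNA among the others of its library, and 3.32, the log2 of 10 ppm, was the lowest value of every library and was read as not detected. Read totals of the libraries were not used, and the depth behind a value is unknown. Between 163 and 365 entries were above the lowest value in a library, on average 272 in CHR, 210 in PAP and 299.5 in cuSCC. The cuSCC and PAP libraries of mouse 10 deviated from their type means together, at r = 0.40 over the tested microRNAs against -0.16 to 0.15 in the other mice, and the calls are therefore also given without that mouse. The summed epithelial markers were between 17.50 and 18.55 on the log2 scale in all 18 libraries. Most of this sum was miR-205-5p, with means of 17.87 in CHR, 18.22 in PAP and 18.08 in cuSCC. Of the 7 markers, 3 passed the test as higher in cuSCC than in CHR and 4 in PAP, where 20.1% and 14% of all tested microRNAs did. They were miR-200a-3p, miR-141-3p and miR-429-3p in cuSCC, and miR-200b-3p, miR-200c-3p, miR-141-3p and miR-429-3p in PAP. miR-203-3p and miR-205-5p passed in neither. All 4 skeletal muscle markers together summed to between 15.44 and 15.98 in CHR, between 5.32 and 12.45 in PAP and between 6.04 and 14.24 in cuSCC. The sum of 5 leukocyte markers lay between 13.12 and 14.28 in CHR, between 9.03 and 11.82 in PAP and between 11.13 and 12.59 in cuSCC, and that of 5 fibroblast and smooth muscle markers 14.30 to 15.06, 11.02 to 14.04 and 12.53 to 15.51. The 2 endothelial markers summed to 7.84 to 9.35, 7.61 to 9.004 and 9.26 to 11.17, and the 4 erythroid markers, of which miR-144-3p was never above the lowest value, to 16.69 to 17.84, 16.70 to 18.24 and 14.87 to 17.87. Against CHR, 3 of 3 tested skeletal muscle markers, 3 of 5 of fibroblasts and smooth muscle and 2 of 4 of leukocytes passed as lower in PAP, where 18.4% of all tested did. In cuSCC 1 of 3, 1 of 5 and 2 of 4 of these passed as lower, where 22.2% of all tested did, and 2 of 2 endothelial markers and 1 of 4 leukocyte markers as higher. The skeletal muscle markers miR-133b-3p and miR-206-3p were at the lowest value in every PAP library. Both met the filter for testing only with their CHR libraries counted. Their calls as lower in PAP are therefore no independent support. Most of the erythroid sum was miR-486-5p, with means of 17.12 in CHR, 17.67 in PAP and 15.84 in cuSCC. miR-451a, the other of the 2 tested erythroid markers, had means of 5.51, 10.29 and 9.50. Against CHR, miR-451a passed as higher in PAP and in cuSCC, and miR-486-5p as lower in cuSCC. Between cuSCC and PAP, 11.6% of all tested microRNAs passed in either direction and 2.39% as lower. Of the tested markers, 3 of 3 of skeletal muscle and 2 of 5 of fibroblasts and smooth muscle passed as higher in cuSCC. So did 2 of 2 endothelial and 1 of 4 leukocyte markers. Lower in cuSCC than in PAP were 1 of 7 epithelial markers, miR-200c-3p, and 1 of 2 erythroid markers. Marker levels thus differed between the types, and their part in the results below was not tested. In such bulk samples fewer cells of a type and less RNA per cell cannot be told apart.

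let-7c-5p was the most abundant arm in every library and let-7a-5p the second. let-7c-5p was 15.60 ± 0.55 in CHR, 16.09 ± 0.32 in PAP and 15.65 ± 0.43 in cuSCC (SD, n = 6), between rank 7 and rank 18 of the 1251 entries. let-7a-5p was 14.77 ± 0.68, 15.04 ± 0.45 and 15.24 ± 0.26 (SD, n = 6). Both were higher than each of the other arms in 18 of 18 libraries. At the other end, let-7g-5p, at 10.45 ± 0.27 in CHR, 11.01 ± 0.49 in PAP and 11.11 ± 0.35 in cuSCC (SD, n = 6), stood above only miR-98-5p, the rarest arm, which ranked between 76 and 201.

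In CHR the order of the means was let-7c-5p, let-7a-5p, let-7b-5p, let-7f-5p, let-7i-5p, let-7d-5p, let-7e-5p, let-7g-5p and miR-98-5p, and it was the same in PAP. Its neighbours let-7i-5p and let-7d-5p differed by 0.053 ± 0.28 in CHR and 0.059 ± 0.36 in PAP (SD of the difference within libraries, n = 6), less than their spread. The other neighbours in CHR kept their order in 6 of 6 libraries. In PAP, let-7f-5p and let-7i-5p also differed by less than their spread, at 0.47 ± 0.54 (SD, n = 6). In cuSCC, let-7f-5p stood ahead of let-7b-5p by 0.76 ± 0.77 (SD, n = 6), also less than the spread, and let-7b-5p and let-7i-5p were apart by 0.078 ± 0.59 (SD, n = 6), within their spread.

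**Figure D1:**
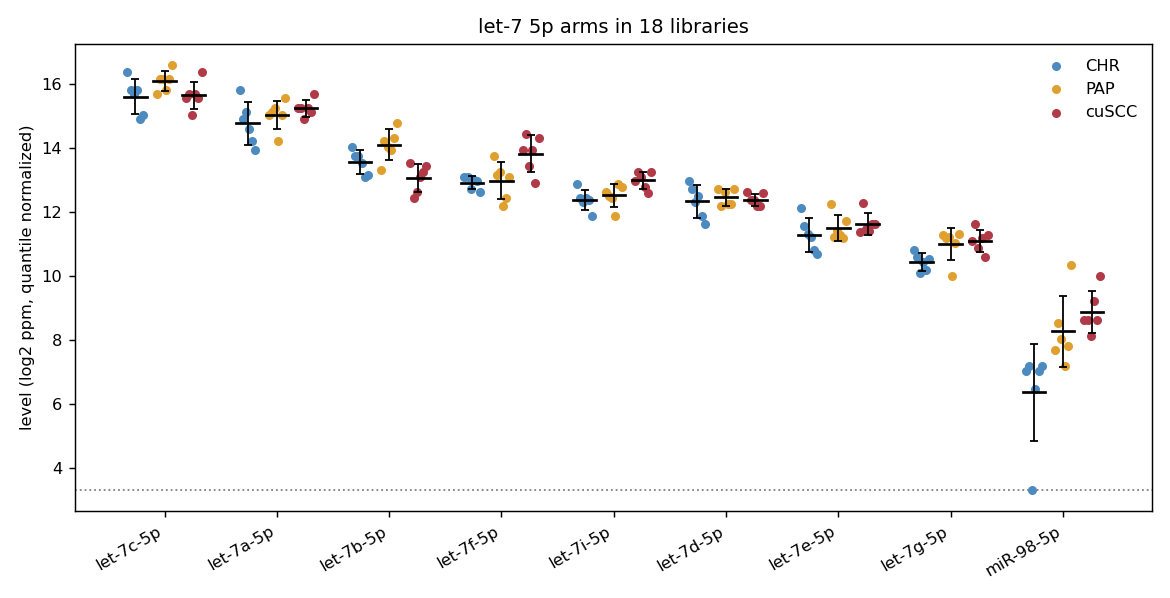
Level of each let-7 5p arm in log2 ppm (vertical axis, quantile normalized) for the 9 arms in order of their mean. Points are the 6 libraries of CHR (blue), PAP (yellow) and cuSCC (red), black lines the mean ± SD, and the dotted line the lowest value of the table, 3.32, where 1 library of miR-98-5p in CHR stood.

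Between cuSCC and CHR, miR-98-5p and let-7f-5p rose in the carcinoma. Once each library's trend against GC content was removed, as described below, miR-98-5p no longer passed and the direction of let-7f-5p turned. Of the 9 arms, 8 had a higher mean in cuSCC, let-7b-5p being the exception, as did 52.9% of the 293 tested microRNAs. Of the 9, 2 passed an adjusted p of 0.05 in limma, both as higher, where 42.3% of all tested microRNAs passed in either direction and 20.1% as higher. The median difference of the 9 arms was 0.47 on the log2 scale, beside 0.11 over all tested microRNAs. The latter was -0.042 with undetected values at the lowest detected value of their library. With the thresholds of the study's methods, an unadjusted p under 0.05 together with a 1.5-fold change, 4 of 9 arms passed, where 51.5% of all tested did.

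miR-98-5p, which shares the seed and is transcribed beside let-7f-2, was lowest at 3.32, in the middle at 7.03 and highest at 7.18 in CHR, and 8.13, 8.63 and 10.02 in cuSCC. All cuSCC libraries were above all CHR libraries, a separation in this direction seen in 1 of 9 arms and in 9.9% of the tested microRNAs. The difference was 2.50 ± 0.60 (SE, n = 6 per type, 95% interval 1.22 to 3.78), a 5.67-fold higher level (limma adjusted p = 0.00501), and cuSCC was higher in 6 of 6 mice. The value of 3.32 belonged to the CHR of mouse 7, where miR-98-5p was not detected, and without that mouse the difference was 2.04 (limma adjusted p = 0.000886). Without mouse 10 it was 2.44 (limma adjusted p = 0.00914).

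let-7f-5p was between 12.64 and 13.10 in CHR, with a median of 12.99, and between 12.92 and 14.44 in cuSCC, with a median of 13.93. The 5 cuSCC libraries other than that of mouse 9 were above every CHR library, and cuSCC was higher in 5 of 6 mice. The difference was 0.91 ± 0.29 (SE, n = 6 per type, 95% interval 0.28 to 1.54), or 1.88-fold (limma adjusted p = 0.0243). With a replicate block for the mouse it did not pass (limma adjusted p = 0.0525), nor did it pass without mouse 2 (0.0634), 3 (0.0822), 8 (0.0705) or 10 (0.0621) (limma adjusted p).

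let-7g-5p and let-7i-5p were higher in cuSCC in 6 of 6 mice but did not pass. let-7g-5p was 10.09, 10.49 and 10.82 in CHR (lowest, median and highest) and 10.60, 11.14 and 11.62 in cuSCC, a difference of 0.66 ± 0.26 (SE, n = 6 per type; limma adjusted p = 0.0507). let-7i-5p was 11.88, 12.40 and 12.87 in CHR and 12.58, 13.03 and 13.26 in cuSCC, a difference of 0.60 ± 0.25 (SE, n = 6 per type; limma adjusted p = 0.0672). The groups overlapped in both arms. The abundant let-7c-5p, with a difference of 0.046 ± 0.32 (SE, n = 6 per type; limma adjusted p = 0.905), and let-7d-5p, with 0.054 ± 0.28 (limma adjusted p = 0.890), had nearly equal means in both types, and let-7c-5p was lower in cuSCC in 4 of 6 mice. let-7a-5p differed by 0.47 (limma adjusted p = 0.258), let-7e-5p by 0.35 (limma adjusted p = 0.346) and let-7b-5p by -0.50 (limma adjusted p = 0.181).

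**Figure D2:**
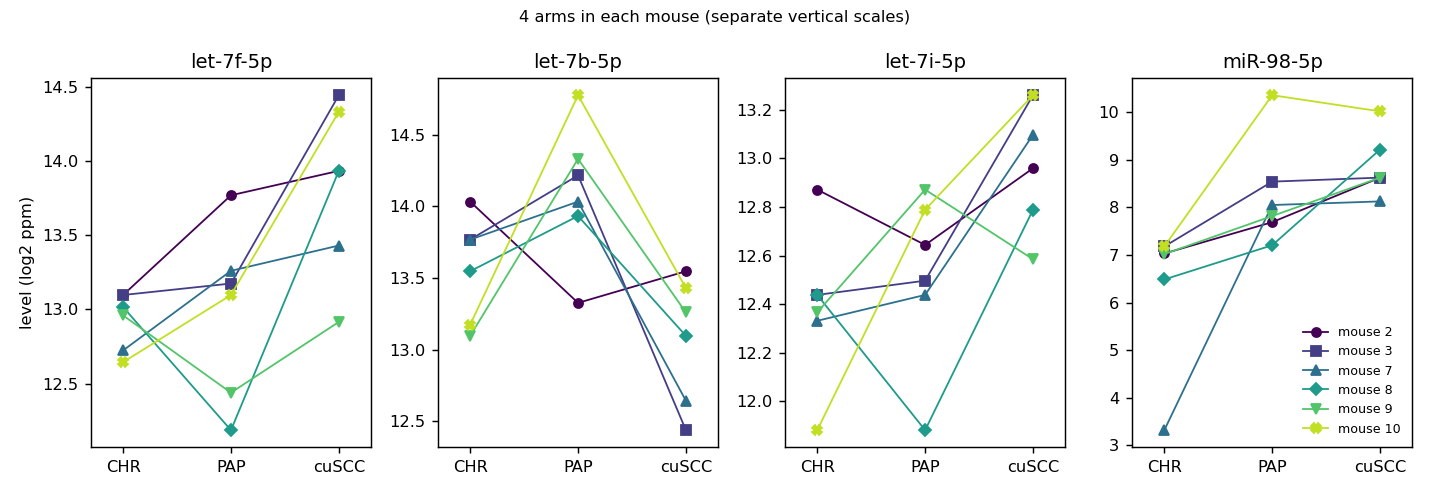
Level in log2 ppm of let-7f-5p, let-7b-5p, let-7i-5p and miR-98-5p (vertical axes, on separate scales) in the CHR, PAP and cuSCC of each mouse, 1 line a mouse. miR-98-5p rises from CHR to both lesions in 6 of 6 mice, and let-7b-5p falls from PAP to cuSCC in 5 of 6.

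Between PAP and CHR, the means of all 9 arms were higher in the papilloma, against 42.7% of all tested microRNAs, but no arm passed the test. Without mouse 10 the mean was higher in 5 of 9 arms, and with the GC trend fitted on other microRNAs, described below, in 6 of 9. limma called 0 of 9, where 32.4% of all tested microRNAs passed in either direction and 14% as higher, 1 of 9 had an unadjusted p under 0.05, against 124 of all 293, and an exact permutation test with the same adjustment called 1 of 9, against 90 of 293. The median difference of the arms was 0.27, beside -0.23 over all tested. The latter was 0.44 with undetected values at the lowest detected value of their library, where 9 of 9 arms were still higher. The background thus depended on how undetected values were filled. The arm with an unadjusted p under 0.05 was miR-98-5p, which was 7.21, 7.93 and 10.36 in PAP (lowest, median and highest). All 6 PAP libraries were above all 6 CHR libraries, as for 6.48% of all tested microRNAs in this direction. The lowest PAP value, 7.21, was close to the highest CHR value, 7.18. The difference was 1.91 (limma adjusted p = 0.0548), and it passed when a replicate block for the mouse was fitted (limma adjusted p = 0.0480). Without mouse 7, whose CHR was at the lowest value, the difference was 1.34. With any 1 mouse left out it did not pass (limma adjusted p from 0.0788 to 0.106).

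let-7b-5p was 13.10, 13.66 and 14.03 in CHR and 13.33, 14.12 and 14.78 in PAP (lowest, median and highest), higher in 5 of 6 mice with overlapping groups. Its difference was 0.54 (limma adjusted p = 0.170), and without mouse 2 it passed at 0.79 (limma adjusted p = 0.0458). let-7g-5p differed by 0.56 (limma adjusted p = 0.133) and passed without mouse 8 at 0.76 (limma adjusted p = 0.0355). let-7c-5p, at 0.49 (limma adjusted p = 0.224), was higher in 4 of 6 mice and equal in 1. The other 5 arms differed by 0.065, for let-7f-5p, to 0.27, for let-7a-5p, and without mouse 10 the difference of let-7a-5p was -0.0065.

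Between cuSCC and PAP, let-7b-5p fell and was the only one of the 9 arms to pass, where 11.6% of all tested microRNAs passed in either direction and 2.39% as lower. let-7b-5p was 13.33, 14.12 and 14.78 in PAP (lowest, median and highest) and 12.44, 13.18 and 13.55 in cuSCC. In 4 cuSCC libraries it was below every PAP library, and it was lower in cuSCC in 5 of 6 mice, mouse 2 being the exception. The difference was -1.03 ± 0.30 (SE, n = 6 per type, 95% interval -1.69 to -0.38; limma adjusted p = 0.0422). It did not pass with a replicate block for the mouse (limma adjusted p = 0.0919), nor without mouse 3 (0.176), 7 (0.135), 8 (0.137) or 9 (0.0910) (limma adjusted p), but did without mouse 10, at -0.97 (limma adjusted p = 0.0457).

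let-7f-5p was higher in cuSCC than in PAP in 6 of 6 mice. It was 12.19, 13.13 and 13.77 in PAP (lowest, median and highest), against 12.92, 13.93 and 14.44 in cuSCC, and the groups overlapped. The difference of 0.84 did not pass (limma adjusted p = 0.143). let-7c-5p was lower in cuSCC in 6 of 6 mice, by 0.13 to 1.12, with a mean difference of -0.44 (limma adjusted p = 0.292). let-7i-5p differed by 0.47 (limma adjusted p = 0.247) and miR-98-5p, at 0.60, also did not pass (limma adjusted p = 0.459). The other 4 arms differed by -0.072 to 0.21. Of the 9 arms, 6 had a higher mean in cuSCC, as did 59.7% of all tested. None of the arms was free of overlap between the types, where 1.37% of all tested were. The median difference of the arms was 0.13, beside 0.21 over all tested. The latter was -0.48 with undetected values at the lowest detected value of their library.

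**Figure D3:**
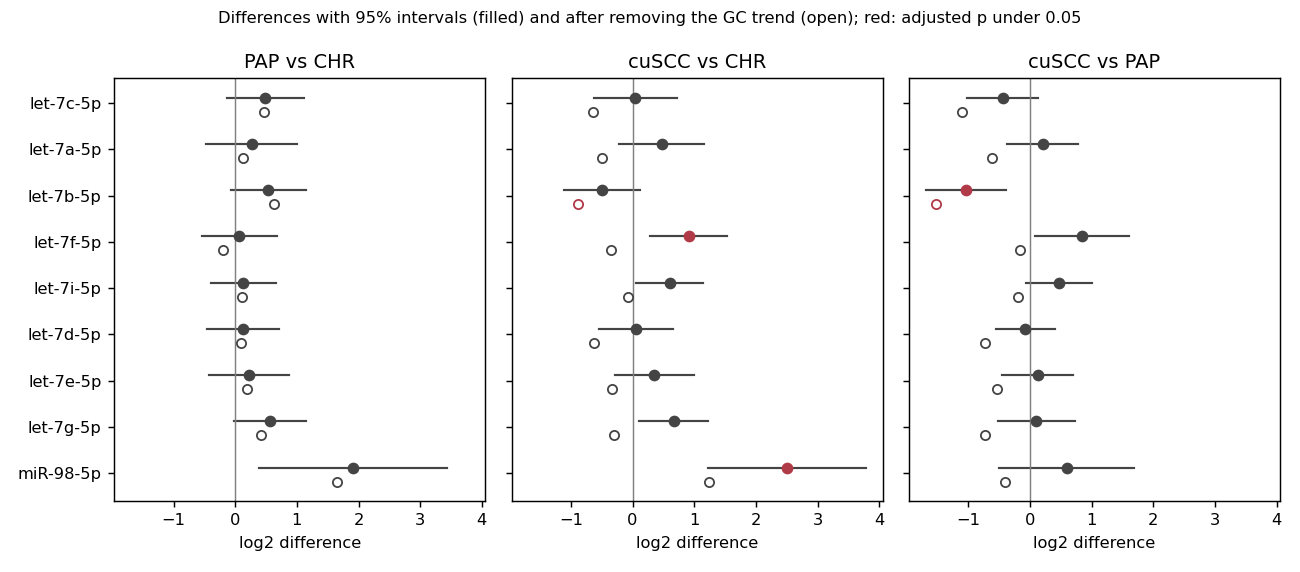
Log2 difference of each arm (horizontal axis) in the 3 comparisons, as filled points with 95% intervals from limma, and as open points after each library's trend against GC content was removed. Red marks an adjusted p under 0.05, reached by let-7f-5p and miR-98-5p in cuSCC against CHR and by let-7b-5p in cuSCC against PAP, and after removal of the trend by let-7b-5p in both comparisons with cuSCC.

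The means of let-7b-5p and let-7f-5p stood in the opposite order in cuSCC, by a difference within its spread. Within a library, let-7f-5p minus let-7b-5p was -0.64 ± 0.33 in CHR, -1.12 ± 0.88 in PAP and 0.76 ± 0.77 in cuSCC (SD, n = 6, log2 scale). let-7b-5p was thus above let-7f-5p in 6 of 6 CHR libraries and 5 of 6 PAP libraries, and let-7f-5p above let-7b-5p in 5 of 6 cuSCC libraries, with mouse 9 as the exception at -0.34. Taken out of the log2 and summed, let-7b-5p made up 10.8% ± 1.19 of the 9 arms in CHR, 12.1% ± 2.46 in PAP and 6.63% ± 1.81 in cuSCC (SD, n = 6). let-7f-5p made up 7.10% ± 2.01, 5.87% ± 2.56 and 11.2% ± 2.88 (SD, n = 6). These shares are of quantile normalized values and not of reads.

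The shares of the 2 leading arms differed as well. let-7c-5p was 44.1% ± 3.24 of the summed arms in CHR, 47.4% ± 4.07 in PAP and 38.5% ± 3.88 in cuSCC, and let-7a-5p 24.98% ± 4.05, 22.9% ± 2.91 and 28.9% ± 1.46 (SD, n = 6). The ranges of let-7c-5p, 40.3% to 52.8% in PAP and 33.2% to 44.1% in cuSCC, overlapped, and those of let-7a-5p, up to 25.5% in PAP and from 27.1% in cuSCC, did not. In CHR the share of let-7a-5p ran from 20.9% to 30.5%, across both. The level of let-7a-5p overlapped between PAP and cuSCC, with a difference of 0.21 (limma adjusted p = 0.644). The shares of a library are tied to each other by their common sum and were not tested. The 9 arms together were 5.04% ± 1.77 of the summed values of a library in CHR, 6.40% ± 1.35 in PAP and 5.80% ± 1.31 in cuSCC (SD, n = 6), with no larger difference than their spread. Their mean level was 12.19 ± 0.38, 12.67 ± 0.36 and 12.75 ± 0.27 (SD, n = 6). It was lowest in CHR in mouse 10, at 11.85, and highest in PAP and cuSCC in the same mouse, at 13.21 and 13.17, and without mouse 10 the difference of cuSCC from CHR in this mean was 0.42, against 0.57 with it.

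**Figure D4:**
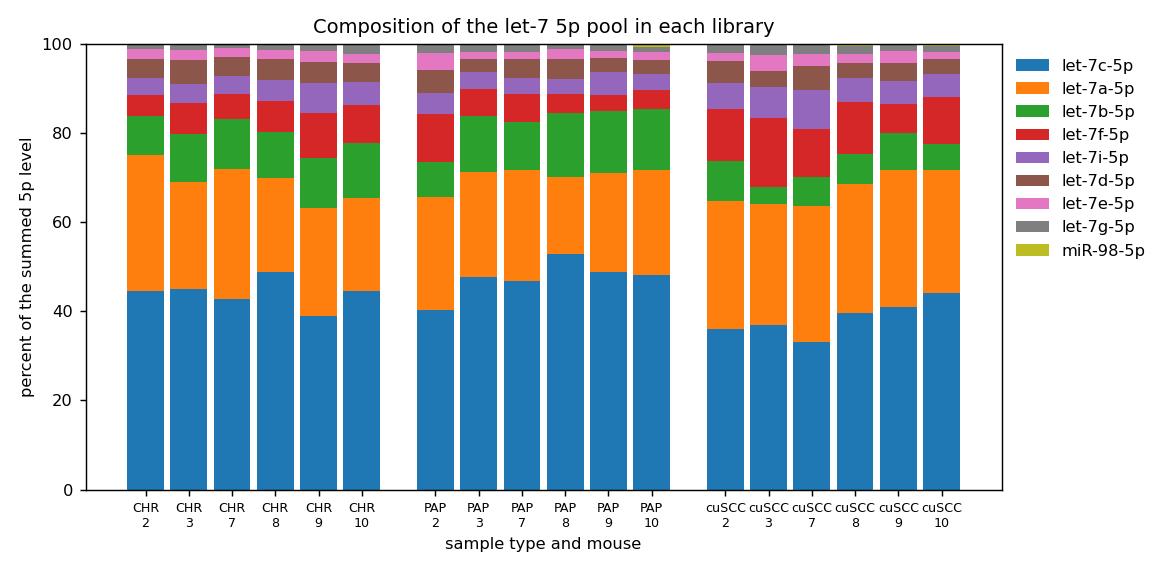
Share of each arm in the summed linear level of the 9 let-7 5p arms (vertical axis, percent) in each of the 18 libraries, grouped by sample type and labelled by mouse. The green part, let-7b-5p, is 3.88% to 8.91% in cuSCC and the red part, let-7f-5p, 6.54% to 15.6%.

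In the comparisons with cuSCC, arms with more G and C had lower differences. Over the 9 arms, the difference between cuSCC and CHR and the percent of G and C correlated at r = -0.83, at -0.87 over the 8 arms without miR-98-5p, and at -0.41 over the other 232 tested microRNAs with a sequence. Between cuSCC and PAP these were -0.82, -0.81 and -0.37, and between PAP and CHR -0.40, 0.38 and -0.13. These are descriptions across microRNAs that share their libraries and, for the arms, most of their bases. The other tested microRNAs with no more G and C than let-7b-5p, 79 in number, had a median difference of 0.79 between cuSCC and CHR, with 74.7% higher in the mean, and the 38 with over 60% had a median of -1.01. The slope of the level against GC content was -0.35 ± 0.11 per 10 percentage points in CHR, -0.61 ± 0.27 in PAP and -0.98 ± 0.21 in cuSCC (SD, n = 6 libraries), and the libraries of CHR, from -0.50 to -0.19, and of cuSCC, from -1.22 to -0.69, did not overlap. Among the 95 other microRNAs above the lowest value in every library, the slopes were 0.28 ± 0.19 in CHR, 0.32 ± 0.20 in PAP and -0.25 ± 0.26 in cuSCC (SD, n = 6), so that PAP did not stand between the other types, and CHR and cuSCC overlapped.

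With each library's trend against GC content removed, 7 of 9 differences between cuSCC and CHR changed sign, and 6 of 9 between cuSCC and PAP. The removal left a gradient among the arms, whose differences still correlated with GC content at r = -0.65 for cuSCC against CHR and -0.68 for cuSCC against PAP (9 arms), where the other 232 microRNAs were at -0.0061 and -0.034. Between cuSCC and CHR, let-7f-5p then differed by -0.35 (limma adjusted p = 0.674), let-7g-5p by -0.30 and let-7i-5p by -0.078, and let-7b-5p passed as lower at -0.89 (limma adjusted p = 0.0355). miR-98-5p kept its direction, at 1.25, but did not pass (limma adjusted p = 0.0929). Between cuSCC and PAP, let-7b-5p fell by 1.52 (limma adjusted p = 0.0396), and let-7f-5p differed by -0.15. With the trend fitted only on the 95 other microRNAs above the lowest value in every library, let-7b-5p fell by 0.87 between cuSCC and CHR (limma adjusted p = 0.0410), and let-7f-5p differed by -0.19 while miR-98-5p was still higher in cuSCC without passing (limma adjusted p = 0.0870). let-7b-5p was thus the arm whose direction in both comparisons with cuSCC was the same with and without the trend, as was that of miR-98-5p between cuSCC and CHR and of let-7c-5p and let-7d-5p between cuSCC and PAP.

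**Figure D5:**
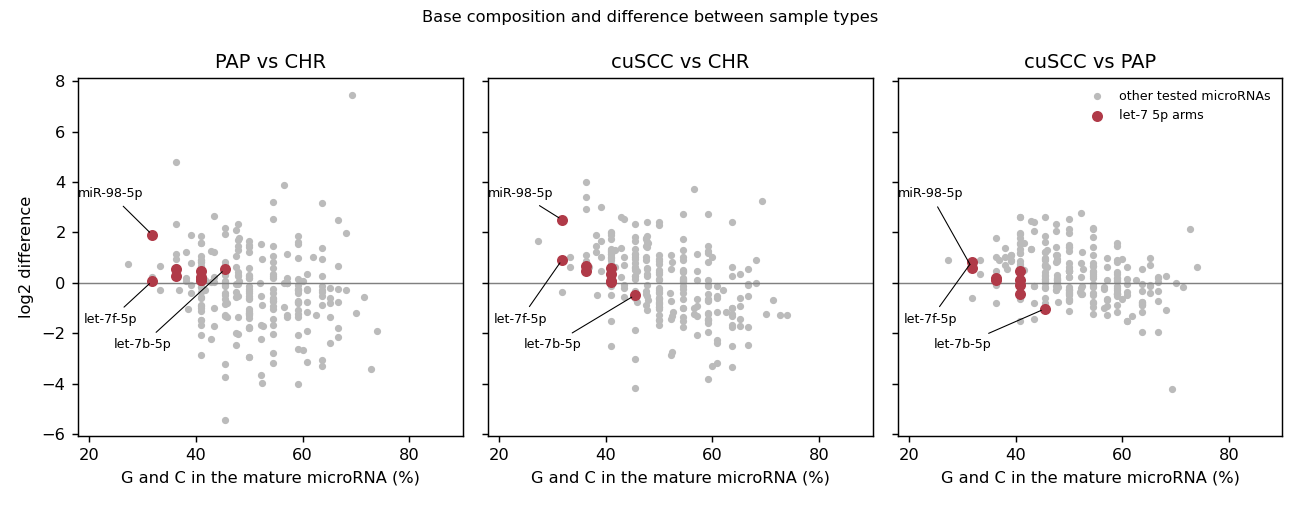
Log2 difference (vertical axis) against the percent of G and C in the mature sequence (horizontal axis) for the 9 let-7 5p arms (red) and the 232 other tested microRNAs with a sequence (grey), in each comparison. In both comparisons with cuSCC the arms run from let-7f-5p and miR-98-5p at 31.8%, above 0, to let-7b-5p at 45.5%, below 0.

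The arms varied together to different degrees. Over the 18 libraries the 36 pairs of arms correlated between r = -0.49, for let-7b-5p and let-7f-5p, and 0.75, for let-7f-5p and let-7i-5p, with a median of 0.49. Over deviations from the type means the range was -0.16, again for let-7b-5p and let-7f-5p, to 0.84, for let-7a-5p and let-7c-5p, with a median of 0.48. The 4 pairs that differ by 1 base had a median r of 0.69, the 10 that differ by 2 bases 0.49, the 11 that differ by 3 bases 0.34 and the 9 that differ by 4 bases 0.38, while the single pairs with 5 and 6 differing bases had 0.60 and 0.47, so that r did not fall steadily with the number of differing bases. All pairs share their libraries and most of their bases. Arms from 1 cluster of hairpins were not always the most alike. let-7b-5p and let-7c-5p, encoded side by side on chromosome 15, correlated at 0.74, let-7a-5p and let-7d-5p at 0.73, let-7f-5p and miR-98-5p at 0.51 and let-7d-5p and let-7f-5p at 0.34 (18 libraries each).

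The tested microRNAs with the pattern most like the mean of the 9 arms over the 18 libraries were miR-93-5p (r = 0.82), miR-25-3p (0.77), miR-92a-1-5p (0.73), miR-31-5p (0.73) and miR-451a (0.72). Those least like it were miR-351-5p (-0.84), miR-1249-3p (-0.83), miR-191-5p (-0.78), miR-342-3p (-0.77) and miR-125a-5p (-0.76), and the median over the tested microRNAs was -0.12. The list partly reflects the sample types. Over deviations from the type means, miR-93-5p (0.82) and miR-25-3p (0.69) remained among the 5 most alike, with miR-107-3p (0.73), miR-210-3p (0.58) and miR-30a-3p (0.58) in place of the other 3, and miR-125a-5p was at -0.56. The points share the normalization of each library, and the values are Pearson correlations given as a description.

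The 5p arms of miR-99a, miR-99b, miR-100 and miR-125a are encoded beside let-7 hairpins. The hairpins of miR-125b lay farther off, in spans of 45287 bp with let-7a-2 and 46687 bp with let-7c-1. The 5p arms of these 5 microRNAs had lower means in cuSCC than in CHR in all 5 cases. Of them 3 passed, miR-125b-5p included, where 22.2% of all tested microRNAs passed as lower. miR-125a-5p fell by 1.48 and miR-99b-5p by 1.01 (limma adjusted p = 0.00234 and 0.0211), while let-7e-5p, encoded between them within 692 bp, differed by 0.35 in the other direction without passing. miR-125b-5p fell by 0.95 (limma adjusted p = 0.0325), miR-100-5p differed by -0.98 (0.0512) and miR-99a-5p by -0.80 (0.0841) (limma adjusted p). In PAP against CHR 1 of the 5 passed, miR-125a-5p, which fell by 1.21 (limma adjusted p = 0.0166), where 18.4% passed as lower. In cuSCC against PAP the 5 arms differed by -0.87 to -0.16, with limma adjusted p from 0.115 to 0.795. GC content was 50% for these arms other than miR-99b-5p, at 63.6%, and thus above that of let-7e-5p, at 40.9%. Of 12 arms from the 3p side of the let-7 and miR-98 hairpins, 4 could be tested, and all 4 passed in limma as lower in cuSCC than in CHR, where 22.2% of all tested did. The exact permutation test called 3 of these 4, all but let-7e-3p. let-7i-3p was above the lowest value in 6 of 6 CHR libraries, 1 of 6 PAP and 4 of 6 cuSCC libraries. Its mean in cuSCC was 3.62, near the lowest value, and it met the filter only with its CHR libraries counted. Its call as lower is therefore no independent support. let-7b-3p, let-7d-3p and let-7e-3p were above the lowest value in every CHR and cuSCC library. Between PAP and CHR limma called 0 of 4, with adjusted p from 0.0732 to 0.480 and 2 at an unadjusted p under 0.05. Between cuSCC and PAP limma called 0 of 4, with adjusted p from 0.173 to 0.856 and 1 at an unadjusted p under 0.05. The exact permutation test also called 0 in both, but between cuSCC and PAP it called 0 of all 293 tested microRNAs. Their GC content, 50% to 59.1%, was above that of the 9 arms. In the mean let-7d-3p stood above let-7d-5p in CHR (13.03 against 12.33) and PAP (12.71 against 12.46). In cuSCC it stood below (11.98 against 12.39).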

How the data were processed

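Small RNA libraries of the CHR, PAP and cuSCC of 6 mice were used. The authors removed adapters, very short reads and homopolymer-ended reads, used BLAST against miRBase, and gave each microRNA in ppm of the usable reads. The deposited values are log2 ppm, never below 3.32. Their quantile normalization was read from the values. Read totals were not used, so the depth is unknown and counting errors cannot be given.

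Entries exceeding the lowest value in 6 or more of the 18 libraries, 293 in number, were tested with lmFit and eBayes of limma 3.58.1 (R 4.3.3) on the libraries of 2 sample types at a time (no block, two-sided), with Benjamini-Hochberg adjustment over all of them. The test was checked on simulated data. GC content came from RefSeq mature sequences, found for 82.3% of the tested entries, and hairpin positions from GENCODE M21. Python 3.11.15 with pandas 2.3.3 was used for counts and matplotlib 3.10.9 for plots. The members, lists and alternatives were chosen with earlier results of these data known. Named microRNAs were the 9 arms, entries with the same seed, the 5p arms of miR-99a, miR-99b, miR-100, miR-125a and miR-125b, the 3p arms, and the 5 most and 5 least correlated with the mean of the 9 arms.

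Libraries are numbered by mouse, so equal numbers mark 1 animal and pair the libraries. Their deviations from the type means correlated between -0.28 and 0.40. p-values concern the spread between 6 mice. Alternatives were other filters, all 3 types in one fit, a variance trend, median centring, a replicate block, an exact permutation test, other lowest values, removal of the GC trend and leaving out each mouse. A GC trend fitted on other microRNAs, and the block together with the GC trend, were added after seeing the data.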

Additional observations from a re-analysis of the deposited data

Results flagged for a closer look

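In 3 of 27 groups of 6 libraries, 1 library lay far from the others of its sample type by Dixon's criterion, which chance meets in about 1 of 20 groups. let-7e-5p in the cuSCC of mouse 3 was 12.30, and the next highest was 11.62. let-7g-5p in the PAP of mouse 8 was 10.02, and the next lowest was 11.03. miR-98-5p in the CHR of mouse 7 was 3.32, the lowest value of the table, and the next lowest was 6.49.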

How the results depend on the processing

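Between cuSCC and CHR, 124 microRNAs passed, 80 with 100 ppm as the lowest value and 74 with the replicate block and the GC trend removed, and 77 (without mouse 3) to 129 with 1 mouse left out. Of the 9 arms, 2 passed, 4 with no filter, with 100 ppm, with the exact permutation test and with a variance trend, 1 with the replicate block and with the GC trend removed on either set of microRNAs, 0 with both, and 1 to 2 with 1 mouse left out. The mean difference of the arms was 0.57, and 0.42 to 0.68 with 1 mouse left out, but -0.27 with the GC trend removed and -0.18 with the trend fitted on other microRNAs. Between PAP and CHR, 95 passed, 57 with 100 ppm and 55 to 79 with 1 mouse left out, 55 without mouse 3 and 59 without mouse 7. The mean difference of the arms was 0.48, and 0.30 (without mouse 10) to 0.60 with 1 mouse left out. The count of arms went from 0 to 1 with the filter of 12 libraries, with all 3 types in one fit, with the replicate block, with undetected values at the lowest of their library and with the exact permutation test, and was 0 to 1 with 1 mouse left out. Between cuSCC and PAP, 34 passed, 21 with the filter of 12 libraries, 8 with no filter, 11 with the GC trend removed, 13 with the block added to it, 80 with undetected values at the lowest of their library, 2 with 100 ppm and 0 in the exact permutation test, where 75 had an unadjusted p under 0.05. It was 1 to 59 with 1 mouse left out, 1 without mouse 3, 7 or 8, 9 without mouse 2 or 9 and 59 without mouse 10. The exact permutation test reaches its smallest p only where the groups do not overlap, as for 1.37% of all tested here. With so few, its adjusted p could hardly pass, and its count of 0 does not bear on single microRNAs. The 1 arm became 0 with the stricter or no filter, block, centring, 100 ppm and exact permutation, and 0 to 1 with 1 mouse left out. The mean of 0.089 became -0.66 and -0.48 with the 2 GC trends, and was -0.026 to 0.16 with 1 mouse left out. With the GC trend removed, with or without the replicate block, the arms that turned between cuSCC and CHR were let-7a-5p (-0.49), let-7c-5p (-0.64), let-7d-5p (-0.63), let-7e-5p (-0.33), let-7f-5p (-0.35), let-7g-5p (-0.30) and let-7i-5p (-0.078), and with the other trend they were -0.39, -0.57, -0.57, -0.27, -0.19, -0.19 and -0.016. Between PAP and CHR, let-7f-5p was -0.19, and with the other trend let-7d-5p was -0.068, let-7f-5p -0.091 and let-7i-5p -0.062. Between cuSCC and PAP, let-7a-5p was -0.62, let-7e-5p -0.53, let-7f-5p -0.15, let-7g-5p -0.72, let-7i-5p -0.18 and miR-98-5p -0.40, and with the other trend -0.48, -0.30, -0.10, -0.58 and, for miR-98-5p, -0.35. With 1 mouse left out, ranges that crossed 0 were -0.21 to 0.22 (let-7c-5p) and -0.13 to 0.14 (let-7d-5p) between cuSCC and CHR, -0.0065 to 0.48 (let-7a-5p), -0.070 to 0.26 (let-7d-5p), -0.057 to 0.24 (let-7f-5p) and -0.023 to 0.27 (let-7i-5p) between PAP and CHR, and -0.064 to 0.33 (let-7e-5p) and -0.11 to 0.21 (let-7g-5p) between cuSCC and PAP. Beyond let-7f-5p, let-7b-5p and miR-98-5p, the block changed no arm's call. The cause of these changes was not tested. Depth limits the precision to an unknown degree.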
